A study of Mus musculus with 3 samples.

Results

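Mediator and RNA polymerase II are the protein machines that start the transcription of messenger RNA, and their genes were examined here in cultured mouse cortical neurons. Members were the protein-coding genes whose symbol begins with Med and a digit or with Polr2, together with Ccnc and Cdk8. The rule gave 45 genes, 32 of Mediator and 13 of RNA polymerase II, of 18121 protein-coding genes with a row for a coding transcript. The series holds 3 RNA-seq libraries of 1 group: wild-type cortical neurons from Swiss-Webster mouse embryos at embryonic day 16, an outbred stock, whose treatment label is none. The growth protocol given for all 3 libraries also describes adding etoposide, a poison of TOP2, shortly before collection; the libraries were taken as untreated on their treatment label and their control titles, and this bears on every level below. Poly-A RNA was read with a stranded kit, and the study maps the DNA enzyme TOP2B in such neurons. There was no second group, so every comparison below is between genes, transcripts or libraries of these neurons. The labels do not say whether separate cultures stand behind them, so an SD reflects how far 3 libraries differ, possibly for technical reasons alone. The p-values below rest on the same 3 libraries and do not measure that spread.

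RNA polymerase II copies protein-coding genes into RNA. Its largest subunit carries a tail of repeated units, the C-terminal domain, whose phosphorylation accompanies the steps from initiation to elongation. Mediator bridges DNA-bound activators and the polymerase. It is built of a head and a middle that contact the polymerase, a tail that many activators bind, and a scaffold subunit that runs through them. A separable kinase module, made of a cyclin, a cyclin-dependent kinase and large linker subunits, binds the core reversibly and blocks its contact with the polymerase while bound. In people, changes in kinase module genes such as MED12 and MED13L are known to cause disorders of brain development.

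The tail of the polymerase is written in the gene Polr2a (mm10 chromosome 11, 69733997 to 69758637, minus strand). Its coding sequence of 5910 bases, 1970 codons, contained 21 exact copies of the unit tyrosine-serine-proline-threonine-serine-proline-serine, 15 of them in 1 unbroken row. A stretch of 4 such units, coding bases 4906 to 4989, is shown because it is the substrate of the kinases described below; capitals mark the tyrosine codon that opens each unit.
Polr2a repeat: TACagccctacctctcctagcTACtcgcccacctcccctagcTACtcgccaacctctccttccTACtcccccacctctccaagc

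Levels are given as TPM, the reads per length of transcript scaled to a fixed total per library,, from the row of each gene's longest coding transcript, as mean ± SD of the 3 libraries. In bulk RNA, fewer cells of a type and less RNA per cell cannot be told apart. Detection was set at a mean level of 1 TPM or more, which 43 of the 45 members reached (95.6%), against 61.5% of all protein-coding genes. The detected members were 31 of 32 Mediator and 12 of 13 polymerase genes. A level of 10 TPM or more was reached by 12 Mediator and 7 polymerase members, 42.2% of all members, against 26.4% of all protein-coding genes. Among detected genes alone the counts were near each other, 19 of 43 members against 42.9% of detected protein-coding genes. Another 24 members lay between 1 and 10 TPM, and Med18 and Polr2k lay just below 1 TPM. The median of the Mediator members was 7.06 TPM and that of the polymerase members 16.8 TPM, against 2.84 TPM for all protein-coding genes and 8.10 TPM for the detected ones. On the log2(TPM + 1) scale these medians were 3.01 for Mediator and 4.16 for the polymerase, against 1.94 for all protein-coding genes. Deposited TPM sum to 1000000 over rows that share reads, and rescaled to nuclear protein-coding genes 31 Mediator and 11 polymerase members reached 10 TPM, against 53.9% of all genes. These counts describe the members and carry no test.

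**Figure D1:**
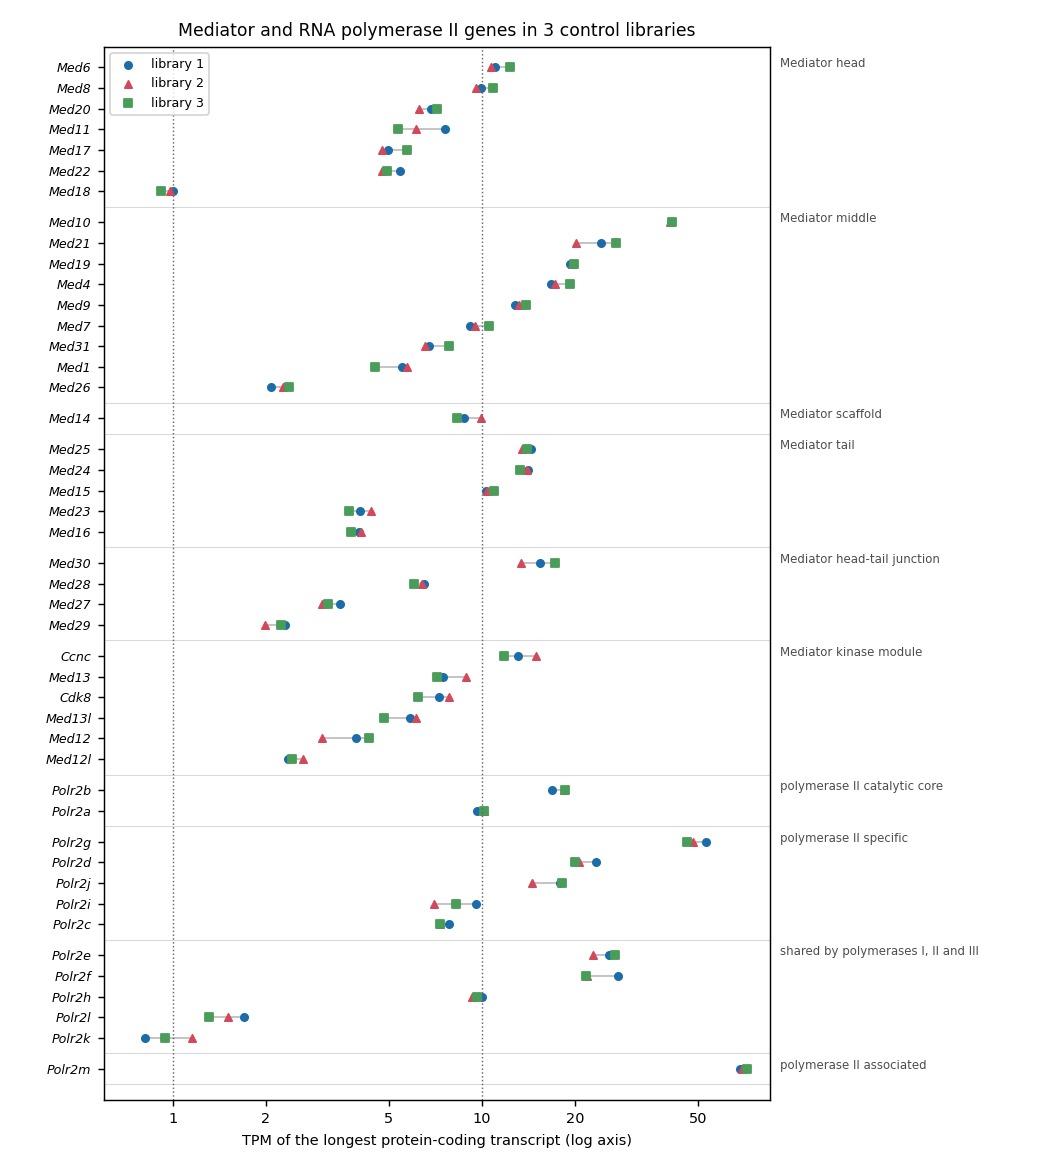
Level of each of the 45 members in the 3 libraries, as TPM of the longest protein-coding transcript on a log axis, grouped by role and ordered by mean within each group; each symbol is 1 library, and dotted lines mark 1 and 10 TPM. Med18 and Polr2k straddle or lie beside the 1 TPM line, and Polr2m is the highest at 69.7 TPM.

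The cultures carried the markers of their label. All 6 neuronal markers stood at 10 TPM or more, from Rbfox3 at 22.6 TPM to Stmn2 at 687 TPM. All 5 astrocyte markers did too, from Aldh1l1 at 10.8 TPM to Slc1a3 at 184 TPM, and so did 3 of 4 oligodendrocyte lineage markers. The markers of dividing cells, Mki67 and Top2a, stood at 1.80 and 4.13 TPM. Of 4 microglial markers 1 was detected, Aif1 at 1.03 TPM, and none of 3 endothelial markers was. The share of each cell type in the members' levels was not tested. Reads were recovered only from rows with the same span in GENCODE M4 and M21 and a whole number of reads. Over genes with such rows, reads of the fullest one summed to 26683956, 23564553 and 23213735 in libraries 1, 2 and 3. In the same order, 1 TPM on 1 kb of transcript stood for 51.3, 43.2 and 45.7 reads.

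The 2 subunits that form the active site of the polymerase were both detected. Polr2a, the largest subunit, had 9.63, 10.2 and 10.1 TPM in libraries 1, 2 and 3, a mean of 9.97 ± 0.294 TPM. Polr2b, the second largest, which forms the opposite side of the cleft that holds the DNA, had 16.9, 18.4 and 18.5 TPM, a mean of 18.0 ± 0.919 TPM. The values of these genes did not overlap in any pair of libraries. Polr2a minus Polr2b was -0.79 ± 0.03 on the log2(TPM + 1) scale, below 0 in 3 of 3 libraries, and -0.40 with summed rows.

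Subunits particular to RNA polymerase II spanned 7.48 to 49.0 TPM. Polr2g, a subunit of the stalk that projects from the enzyme, was the highest of them with 53.0, 48.1 and 45.8 TPM. Its stalk partner Polr2d had 23.3, 20.6 and 19.9 TPM, below every value of Polr2g. Both stalk genes were highest in library 1 and lowest in library 3. Polr2c and Polr2j encode the pair that nucleates assembly of the enzyme; Polr2j averaged 16.8 ± 2.05 TPM and Polr2c 7.48 ± 0.311 TPM. Polr2i, which has a part in transcript fidelity, had 9.55, 6.98 and 8.23 TPM.

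The 5 subunits shared with RNA polymerases I and III ranged from below the detection limit to 25.2 TPM. Polr2e had 25.8, 22.8 and 26.9 TPM, and Polr2f had 27.6, 21.9 and 21.6 TPM. Their ranges overlapped, and each was above every value of Polr2h, at 9.96, 9.30 and 9.65 TPM. Polr2l stood at 1.70, 1.51 and 1.31 TPM and Polr2k at 0.812, 1.15 and 0.947 TPM, the lowest values of the 13 polymerase genes. Polr2k rested on 25, 30 and 26 reads, and its mean passed 1 TPM when library 1 was left out. Both of these small subunits are needed by all 3 polymerases, and both share sequence with other loci, as described below. Polr2m, whose product binds the finished polymerase and hinders initiation, is an associated protein rather than a core subunit. It had 68.0, 69.2 and 72.1 TPM, the highest mean of the 45 members, and without it the polymerase median was 3.81 on the log2 scale.

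Of the 7 Mediator head genes 6 were detected, with a median of 6.35 TPM. Med6 had 11.0, 10.7 and 12.3 TPM, and Med8 had 9.95, 9.58 and 10.8 TPM. These ranges overlapped and lay above the longest coding rows of the other head genes. The overlap depends on the row. On its highest row Med8 had 16.4, 15.8 and 17.9 TPM, above every value of Med6 on its longest row. Those values were also above the highest row of Med6, which reached at most 14.7 TPM, in library 3. Med8 anchors the mobile pair of Med18 and Med20, and this trio differed in level. Med20 had 6.86, 6.25 and 7.15 TPM, whereas Med18 had 1.002, 0.980 and 0.915 TPM, from 86, 71 and 70 reads. No value of Med18 came near those of its partners. Its mean of 0.966 ± 0.0453 TPM and that of Polr2k, 0.971 ± 0.173 TPM, were the lowest of the 45 members, and their ranges overlapped. The architectural subunit gene Med17 averaged 5.15 ± 0.509 TPM. Med11 and Med22, whose products pair with each other, averaged 6.35 ± 1.12 and 5.04 ± 0.357 TPM. On its highest row, however, Med22 had 13.2, 11.0 and 11.3 TPM. That row was above Med11 in each library and overlapped the range of Med6.

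The 9 middle genes were all detected, and 5 of them reached 10 TPM. Med10, part of the hook of the middle, had 40.9, 40.5 and 41.0 TPM and was the highest Mediator gene. Its coefficient of variation over libraries, 0.717%, was the smallest of the 43 detected members, whose median was 7.46%, against 7.88% for all detected protein-coding genes. Med21, which forms the hinge of the middle with Med7, had 24.3, 20.1 and 27.1 TPM. Med7 had 9.18, 9.46 and 10.5 TPM, below Med21 in each library. The highest row of Med7 had 19.1, 19.7 and 21.8 TPM. That row was also below Med21 in each library, but its range overlapped that of Med21. Med19 averaged 19.6 ± 0.284, Med4 17.7 ± 1.36, Med9 13.3 ± 0.561 and Med31 7.03 ± 0.708 TPM. Med1, the subunit that nuclear receptors bind, had 5.51, 5.73 and 4.51 TPM. Med26, a docking site for elongation factors that is found in part of the Mediator complexes, had 2.08, 2.27 and 2.38 TPM, the lowest of the middle genes.

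Med14, the scaffold that joins head, middle and tail, had 8.72, 9.90 and 8.32 TPM. The 5 tail genes were all detected. Med25, a target of viral and cellular activators, had 14.4, 13.5 and 14.02 TPM. Med24 had 14.1, 13.9 and 13.2 TPM, a range that overlapped that of Med25. Med15, which binds the sterol regulator SREBP, averaged 10.5 ± 0.331 TPM. The remaining tail genes formed a lower pair, Med23, a target of signalling through the factor ELK1, at 4.05 ± 0.330 TPM and Med16 at 3.94 ± 0.157 TPM. Their ranges overlapped each other and no other tail gene. Med1 minus Med24 was -1.24 ± 0.11 on the log2(TPM + 1) scale, below 0 in 3 of 3 libraries. The genes of the junction between head and tail had a median of 4.76 TPM. On the longest coding rows Med30 led with 15.4, 13.4 and 17.2 TPM. Med28, Med27 and Med29 averaged 6.30 ± 0.2501, 3.23 ± 0.231 and 2.17 ± 0.166 TPM. This order depends on the row, since Med28 averaged 30.3 TPM on its highest row, above Med30, which has 1 row.

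All 6 kinase module genes were detected, and only the cyclin gene reached 10 TPM. Ccnc, which encodes cyclin C, had 13.0, 15.0 and 11.8 TPM. Cdk8, its kinase, had 7.25, 7.81 and 6.21 TPM. Both genes were highest in library 2 and lowest in library 3, and Ccnc minus Cdk8 was 0.82 ± 0.05 on the log2(TPM + 1) scale, above 0 in 3 of 3 libraries. Cdk19, the paralog that can replace Cdk8 and that the rule did not take in, had 7.82, 8.43 and 6.10 TPM. Cdk8 minus Cdk19 was -0.06 ± 0.07, above 0 in 1 of 3 libraries, and it turned to 0.14 with the highest row of each gene and to 1.55 with summed rows. The exact sign-flip permutation gave p = 0.5 for this pair, and its order was not settled.

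The linker genes of the kinase module come in paralogous pairs, of which a complex is thought to hold 1 each. Med13, which tethers the module to the core, had 7.50, 8.89 and 7.17 TPM, and its paralog Med13l had 5.83, 6.14 and 4.84 TPM. Med12, which activates the kinase, had 3.90, 3.03 and 4.32 TPM, and its paralog Med12l had 2.36, 2.63 and 2.43 TPM. The pair was closest in library 2, where Med12 was lowest and Med12l highest. Med13 minus Med13l was 0.42 ± 0.09 and Med12 minus Med12l 0.44 ± 0.26 on the log2(TPM + 1) scale, each above 0 in 3 of 3 libraries. Summed rows gave 2.11 and 1.64 for these differences. The sum counts shared reads once per row, and Med13 and Med12 have 4 and 9 rows, against 1 and 4 for their paralogs.

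Polymerase II was set beside its relatives through 3 more pairs. Polr1a and Polr3a, the largest subunits of polymerases I and III, averaged 3.61 ± 0.0706 and 3.80 ± 0.0599 TPM. Polr2a minus Polr1a was 1.25 ± 0.05 and Polr2a minus Polr3a 1.19 ± 0.04 on the log2(TPM + 1) scale. For the second largest subunits, Polr2b minus Polr3b was 1.86 ± 0.05, with Polr3b at 4.22 ± 0.189 TPM. All 3 differences were above 0 in 3 of 3 libraries. The 9 pairs were tested with an exact two-sided permutation that flips the sign of each library's difference, and 8 gave p = 0.25, the smallest value that 3 libraries allow, or 0.281 after Benjamini-Hochberg adjustment.

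All genes of the related lists made for this comparison were detected as RNA. The 18 general transcription factor genes had a median of 10.0 TPM, and 9 of them reached 10 TPM. Gtf2h5, a small subunit of TFIIH, at 41.5 ± 1.59 TPM, and Gtf2f1, of TFIIF, at 32.3 ± 4.76 TPM were the highest. Mnat1, a subunit of the TFIIH kinase, stood at 2.61 ± 0.373 TPM on its longest row and 8.99 TPM on its highest row. Tbp, the TATA-binding protein, was the lowest at 1.59 ± 0.0744 TPM on its longest row and 11.7 TPM on its highest row. The 14 TAF genes, partners of Tbp in TFIID, had a median of 7.03 TPM, from Taf5 at 1.82 and Taf3 at 2.57 TPM to Taf9b at 13.6 and Taf9 at 19.4 TPM. The 19 genes particular to polymerases I and III had a median of 6.82 TPM, led by Crcp at 21.3 and Polr3k at 19.5 TPM, with Polr3g at 1.63 and Polr1e at 2.44 TPM at the low end. The 17 genes of C-terminal domain enzymes and polymerase assembly had a median of 5.89 TPM. Ssu72, a phosphatase of the tail, led at 29.1 ± 1.88 TPM, followed by Cdk9, the kinase that releases paused polymerase, at 16.8 ± 1.18 TPM. Rpap1, an assembly factor, and Ctdsp1, another phosphatase, closed that list at 2.74 and 2.50 TPM.

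The transcript row taken for a gene mattered for some members. The 45 members had 181 rows, 14 of them a single row, and rows of a gene share reads. The highest row was at least 1.5 times the longest coding row in 9 members. Med28 had the widest gap, with 32.2, 30.4 and 28.4 TPM on a row of 778 bases, against 6.49, 6.39 and 6.01 TPM on the longest row of 4560 bases. Med27 followed at 10.5 against 3.23 TPM, then Med22 at 11.8 against 5.04 TPM and Polr2j at 39.5 against 16.8 TPM. Med7, Polr2i, Med8, Med19 and Med1 had ratios of 2.08, 1.77, 1.65, 1.57 and 1.53. With the highest row 17 Mediator and 9 polymerase members reached 10 TPM, against 31.0% of all protein-coding genes.

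**Figure D2:**
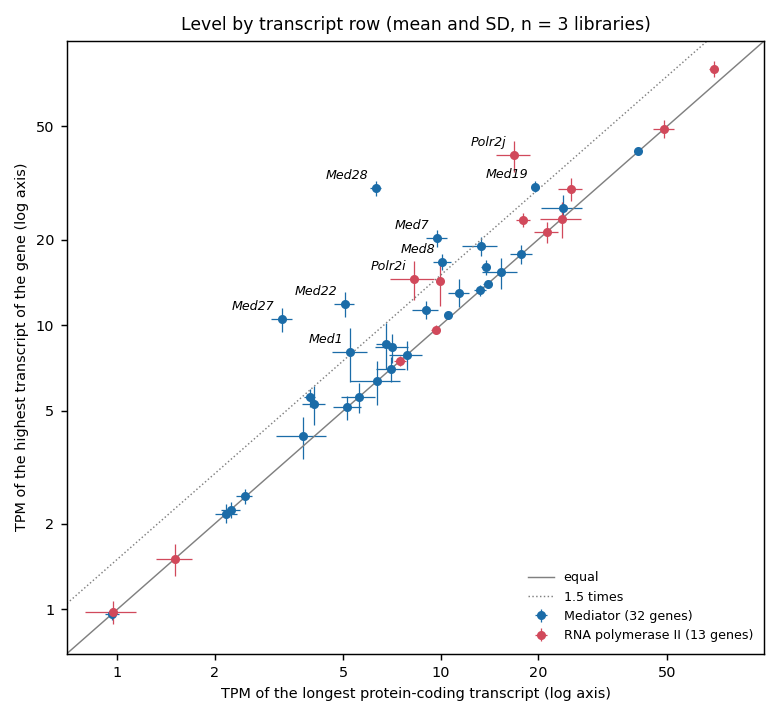
TPM of the highest transcript row of each member against TPM of its longest protein-coding row, both on log axes, with bars for the SD of 3 libraries; the solid line marks equal values and the dotted line a ratio of 1.5. The 9 named genes lie at or above the dotted line, with Med28 farthest from equality at a ratio of 4.81.

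For some of these genes the reads could be placed within the transcript. Deposited TPM were whole multiples of the value of 1 read (tolerance 0.01) in at least 99.86% of 74441 rows per library, so reads could be compared between a short row and a longer row that contains it. Med8 (mm10 chromosome 4, 118409337 to 118415782, plus strand) gave the sharpest contrast. Transcript Med8-202 covers 60.4% of the bases of Med8-204 and held 886 of 889, 720 of 722 and 861 of 861 reads in libraries 1, 2 and 3. The other 691 bases, 673 of them 3′ UTR, came to a density of 0.0506 ± 0.0447 TPM, against 16.7 TPM inside the short transcript. The longest coding row thus divided nearly the same reads by a greater length.

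Med22 (mm10 chromosome 2, 26905262 to 26910677, minus strand) behaved alike to a smaller degree. Its short transcript covers 27.8% of the bases and held 65.1% ± 1.99 of the reads. The remaining 2533 bases, 2418 of them 3′ UTR, had 2.43 ± 0.0745 TPM, against 11.8 TPM inside, so they were covered at a lower density. In Med19 the remaining bases had 12.9 TPM, against 30.7 TPM inside, and in Med7 6.87 TPM, against 17.2 TPM inside. Polr2a showed it at the ends of a long transcript: Polr2a-202 covers 86.0% of Polr2a-201 and held 95.6% ± 0.638 of its reads. The other 941 bases, 414 of 5′ UTR, 413 of 3′ UTR and 114 coding, had 3.16 ± 0.441 TPM, against 11.1 TPM inside. Med23 had 300 such bases at 0.123 ± 0.0938 TPM. By contrast Cdk8 had 6.98 ± 0.775 TPM outside its transcript Cdk8-206 and 7.27 TPM inside, and Polr2m 65.0 ± 0.659 TPM outside and 79.5 TPM inside. How reads that cross the border of a short transcript were counted was not tested.

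**Figure D3:**
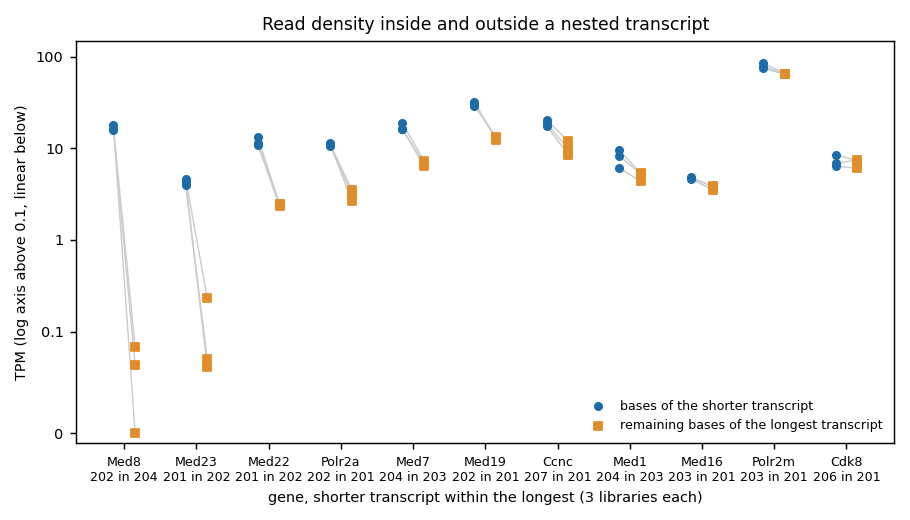
Read density, as TPM on an axis that is logarithmic above 0.1 and linear below, for the bases of a shorter transcript and for the remaining bases of the longest transcript of the same gene, with 1 point per library; for each gene the nested transcript with the largest ratio is drawn. Med8 and Med23 have almost no reads outside the shorter transcript, whereas Cdk8 and Polr2m are nearly level.

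Processed pseudogenes, copies of a spliced RNA pasted back into the genome, can take or remove reads of their parent gene. For 36 members at least 99% of the 50-base words of the transcript occurred at no other annotated transcript locus, and for 6 the share was below 90%. Polr2c had 61.2% unique words, Polr2k 75.7%, Polr2l 79.0%, Cdk8 82.1%, Polr2h 85.5% and Med4 88.8%. Of these 6 genes 4 encode polymerase subunits, of which 3 are shared by all polymerases. The chief copies of Cdk8 and Polr2h have no row in the table, so their reads are not analysed here. Of the copies with a row, Gm11993, which resembles Polr2c, had 0, 0 and 0.0267 TPM, and Gm9434, which resembles Med4, had 0, 0.0285 and 0.0539 TPM. The words of Polr2l recurred at 74 other loci. The chief one was annotated as the protein-coding gene Usp50, which held 283 of its 1601 words. Within the span of Usp50 lies the processed pseudogene Gm10774, which held 105 of the 1601 words. Gm10774 had 0.0956, 0 and 0 TPM in libraries 1, 2 and 3. The highest row of Usp50 had 0.0241, 0.0572 and 0.0541 TPM. Polr2c averaged 7.48 TPM, Polr2k 0.971, Polr2l 1.51, Cdk8 7.09, Polr2h 9.64 and Med4 17.7 TPM. What the shared words do to these levels was not tested.

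Polr2k (mm10 chromosome 15, 36174033 to 36177010, plus strand), the gene with the lowest polymerase value, showed how close such copies can be. The pseudogene Gm14567 on chromosome X is identical to all 174 bases of its coding sequence without the stop codon, and it was at 0 TPM in all 3 libraries. A second pseudogene, Gm20305 (mm10 chr1:180854282-180854458, minus strand), differs from it by 1 substitution, T49G, counted from 1 at the first base of the start codon with the base of Polr2k first. Both sequences are shown to let the difference be seen, with the differing base of the copy in capitals.
Polr2k coding: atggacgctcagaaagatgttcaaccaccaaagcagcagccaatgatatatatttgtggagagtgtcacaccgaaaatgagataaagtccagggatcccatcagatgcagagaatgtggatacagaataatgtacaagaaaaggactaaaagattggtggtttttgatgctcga
Gm20305: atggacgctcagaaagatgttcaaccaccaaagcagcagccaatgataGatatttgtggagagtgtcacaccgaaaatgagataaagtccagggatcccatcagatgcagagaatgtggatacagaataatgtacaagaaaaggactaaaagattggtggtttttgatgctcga
The copy Gm20305 had 5.51, 0.131 and 12.5 TPM in libraries 1, 2 and 3, while Polr2k had 0.812, 1.15 and 0.947 TPM. Library 3 was thus the highest for the copy and library 2 the highest for its parent. Whether reads of Polr2k were counted on Gm20305 or dropped for matching several places was not tested.

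Members differed little between libraries, and part of that difference went with transcript length. Med11, with 7.57, 6.13 and 5.36 TPM, and Med12 had the largest coefficients of variation of the detected members, 17.6% and 17.5%. Polr2i followed at 15.6%, Med21 at 14.7% and Polr2f at 14.2%. Of 16 detected members of 3 kb or more, 9 were highest in library 2, among them Med13, Med14, Ccnc and Med1. Of 27 shorter members only Cdk8 was highest in library 2, and 15 were lowest there (55.6%), among them Med21, Polr2i and Polr2j. Among all detected protein-coding genes 55.5% of the long and 22.0% of the shorter ones were highest in library 2, and 38.6% of the shorter ones were lowest there. Over the 43 members the deviation of library 2 from the mean of the libraries, on the log2(TPM + 1) scale, correlated with log2 length at r = 0.63 (Spearman's rho 0.66), against r = 0.45 over 11150 detected genes. In libraries 1 and 3 the members' r was -0.46 and -0.26. These are descriptions across genes that share a library and its depth. Med12, of 6940 bases, went the other way, with its lowest value in library 2. Markers of the oligodendrocyte lineage also differed between the libraries, with list medians of 3.82, 3.02 and 4.42 on the log2(TPM + 1) scale in libraries 1, 2 and 3. Pdgfra had 11.5, 4.94 and 18.4 TPM and Olig2 15.1, 10.1 and 22.7 TPM, lowest in library 2 and highest in library 3, whereas Mbp had 1.29, 1.25 and 1.18 TPM. The part of these cells in the members' library differences was not tested.

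**Figure D4:**
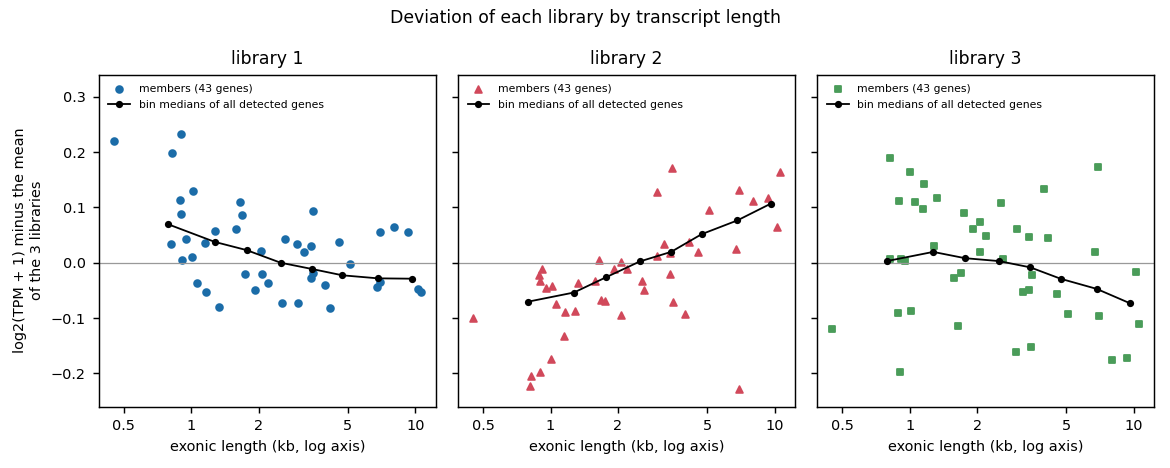
Deviation of each library from the mean of the 3 libraries, in log2(TPM + 1), against exonic length on a log axis, with 1 panel per library; coloured symbols are the 43 detected members and the black line joins the medians of length bins of all detected protein-coding genes. In library 2 short members lie mostly below 0 and long ones mostly above, as the line does, with Med12 as the low point on the right.

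Level itself went only weakly with length. Over the 45 members the log2 level correlated with log2 exonic length at r = -0.29, and over the 32 Mediator members at r = -0.37. Over the 13 polymerase members r was 0.08, against -0.15 over the detected protein-coding genes, all as descriptions across genes.

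Promoters were compared as sequence that the choice of members did not use. RefSeq windows on GRCm38.p6, from 250 bases before to 50 after a start, were found for 38 of the 45 members, 44 windows in all, and were set beside 11369 windows of detected protein-coding genes. The ratio of observed to expected CpG had a median of 0.852 in members and 0.771 in detected genes, and it was above 0.6 in 84.1% of members' windows and 72.6% of those of detected genes. The GC box GGGCGG was in 65.9% of members' windows and 64.1% of those of detected genes. The letters CCAAT were in 36.4% of members' windows and 37.7% of those of detected genes. The shares of both boxes were thus near those of detected genes, and most members' windows were CpG-rich, a type common among broadly used genes.

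Shorter lists of members held the other motifs, each searched alone on both strands with overlaps between motifs kept. The ETS core CCGGAAG was in 27.3% of members' windows, 12 windows that included Med10, Med14, Med19, Polr2c, Polr2f and Polr2j, and in 17.6% of those of detected genes. The TATA box TATAAA was in 11.4% of members' windows, at Polr2a, Polr2c, Med7, Med16 and Med28, and in 6.59% of those of detected genes. The YY1 letters AAGATGGC were in 2.27% of members' windows, at Med31 alone, and in 4.59% of those of detected genes. Of all 32851 promoter windows 8.86% held the ETS core, 13.6% the TATA box, 35.7% the GC box, 37.4% CCAAT and 2.75% the YY1 letters. The promoters of the catalytic subunit and of the scaffold are shown because they carry the motifs in different mixtures. Capitals mark the GC boxes, the TATA box and the ETS core on either strand. Polr2a is chr11:69758584-69758883 and Med14 is chrX:12761924-12762223, both on the minus strand.
Polr2a: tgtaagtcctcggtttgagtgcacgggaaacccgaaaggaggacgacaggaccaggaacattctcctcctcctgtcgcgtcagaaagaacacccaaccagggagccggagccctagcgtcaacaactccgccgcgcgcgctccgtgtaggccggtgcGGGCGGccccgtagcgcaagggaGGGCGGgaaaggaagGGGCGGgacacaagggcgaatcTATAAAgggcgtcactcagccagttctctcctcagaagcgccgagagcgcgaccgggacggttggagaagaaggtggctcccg
Med14: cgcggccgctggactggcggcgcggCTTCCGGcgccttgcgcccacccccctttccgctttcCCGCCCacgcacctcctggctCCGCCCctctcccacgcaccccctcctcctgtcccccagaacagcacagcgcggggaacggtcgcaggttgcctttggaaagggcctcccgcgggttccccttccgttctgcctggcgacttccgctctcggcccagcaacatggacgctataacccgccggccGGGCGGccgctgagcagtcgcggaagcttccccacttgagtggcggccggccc
The Polr2a window holds 3 GC boxes and a TATA box, and the Med14 window 3 GC boxes and an ETS core. A match is a description of letters, not a site in use.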

How the data were processed

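The deposited table gives TPM per transcript for the 3 libraries, made by the authors from mm10 with GENCODE release M4 identifiers, per the file headers. The submitters' processing notes name Trimmomatic, TopHat, Bowtie and HTSeq; no settings are given in the sources used here. Of 84660 rows 83017 matched GENCODE M21 by transcript identifier, which supplied symbols and exons. A member's value is the row of its longest protein-coding transcript; levels were averaged over libraries and put on a log2(TPM + 1) scale. Reads were recovered as TPM times exonic length over a unit per library, for the 33 members whose row has the same span in both releases. They served for depth and for nested transcripts. Counts of library pairs differed by a chi-square of 12.4 to 18.7 per degree of freedom, so each was kept as its own sample. The members and the lists were chosen with earlier results of these data known. All members are named, and of each related list the highest 2 and the lowest 2. The highest rows of Tbp and Mnat1 and the examples beside counts were chosen after their values were seen. Pairs of genes were tested by exact sign-flip permutation with Benjamini-Hochberg adjustment. Alternatives were the highest row, the sum of rows, each library left out, the median, a rescaling to nuclear protein-coding genes, a pseudocount of 0.1, other detection limits and members with at least 90% unique words. The calculations were tested on simulated data of 63682 rows, where 100% of reads were recovered. Python 3.11.15, numpy 2.4.6, pandas 2.3.3 and scipy 1.17.1 were used.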

Additional observations from a re-analysis of the deposited data

How the results depend on the processing

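The detected counts of 31 Mediator and 12 polymerase members were 31 to 32 and 12 to 13 with the other row choices, each library left out, the median, rescaling and a limit of 0.5 TPM, and 24 and 11 at a limit of 5 TPM. Leaving out each library gave 11 to 13 Mediator and 7 to 8 polymerase members at 10 TPM, and medians of 3.02 to 3.03 and 4.10 to 4.23 on the log2 scale. The choice of row moved more. Members at 10 TPM numbered 26 of Mediator and 10 of the polymerase with summed rows, against 45.1% of all protein-coding genes, and 31 and 11 after rescaling, against 53.9%. The Mediator median of 3.01 became 3.55 with the highest row, 4.88 with summed rows, 5.12 after rescaling, 2.84 with a pseudocount of 0.1 and 2.98 in members with at least 90% unique words. The polymerase median of 4.16 became 4.48 with the highest row, 5.58 with summed rows, 6.35 after rescaling, 4.48 in members with at least 90% unique words and 3.81 without Polr2m, which was tried after seeing the data. Rescaling raised the median of all protein-coding genes by 1.92 and that of the members by 2.13. Cdk8 minus Cdk19 turned to 0.14 with the highest row and 1.55 with summed rows. No other pair turned. Of 45 single levels 22 moved by over 1 SD with the highest row, 31 with the sum and 45 with rescaling. No paired analysis was possible because there is 1 group of samples; gene pairs were compared within libraries. Depth limits Med18 and Polr2k, which rest on few reads.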

Other observations

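Some members share bases with a gene on the other strand. Gm26819, a long noncoding RNA gene, overlaps 90.9% of the exonic bases of Med10 on the opposite strand. Med10 stood at 40.8 TPM while the 1 row of Gm26819 was at 0.00380, 0.00451 and 0 TPM. The overlap was taken over all M21 transcripts of Gm26819. Whether its row holds the shared bases was not tested, so these values do not show how strand was treated. Polr2i shares 39.7% of its exonic bases with the opposite-strand gene Tbcb, and stood at 8.25 TPM beside 62.2 TPM for Tbcb. Polr2c shares 26.3% with Dok4, and stood at 7.48 TPM beside 11.8 TPM for Dok4. Reads of genes that overlap on the same strand cannot be told apart by strand. Med20, at 6.75 TPM, shares 25.0% of its exonic bases with Gm20517, at 6.65 TPM, on the same strand. Med12, at 3.75 TPM, shares 10.4% with Gm21986, at 9.22 TPM. The part of shared reads in these values was not tested.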
